A study of Mus musculus with 2 samples.

Results

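The genes that flank Lgmn on mouse chromosome 12 were followed to ask whether the knockout of Lgmn was accompanied by changes in the genes linked to it. Lgmn (Entrez gene 19141, chromosome 12, 102394082 to 102439728 in GRCm38) encodes legumain, a lysosomal protease that cleaves after asparagine. The flanking genes were those starting from 10 Mb before the start of Lgmn to 10 Mb beyond its end, without Lgmn itself and without the Serpina3 genes, and with at least 50 estimated counts in at least 1 library. There were 61 such genes, all protein-coding, of 15605 genes listed in the series and of 9498 that reached 50 counts. The libraries came from peritoneal macrophages (phagocytes that live in the abdominal cavity) of C57BL/6 mice aged 6-8 weeks. Donors were wild type or carried the lgmn-/- genotype, and both kinds of cell had been co-cultured for 4 days with EO771, a mouse mammary carcinoma line. There was 1 library of each genotype, so the differences are those between these libraries, with no replicate and no test. Which exons were deleted, the strain of the stem cells used for targeting, the number of backcrosses and whether animals were pooled are not given in the sources used here.

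An allele made by homologous recombination in embryonic stem cells is inherited together with the stretch of chromosome around it. Backcrossing shortens that stretch slowly, so neighbours of a targeted gene can keep the alleles of the stem cell donor, and a selection cassette left in the locus can alter the transcription of genes beside it. The stretch around Lgmn in the mouse holds genes for Golgi tethers, for enzymes of RNA maturation, for a cluster of serpins, for interferon-inducible membrane proteins and, farther out, the imprinted Dlk1-Dio3 domain.

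The start region sequences of the genes on which the results turn are given first. They are from RefSeq (GRCm38.p6), which gave a promoter window for 53 of the 61 genes. Each line holds the 250 bases before the start site, 5′ to 3′ on the strand of the gene, in lower case. Capitals mark matches on either strand to the letters TATAAA of a TATA box, to those of a CCAAT box, or to the letters GGGCGG of a GC box. Ckb (chr12:111672339-111672588, minus strand) is shown because it was the 1 flanking gene that was lower in knockout by 2-fold or more. Dync1h1 (chr12:110601145-110601394, plus strand), Dicer1 (chr12:104751953-104752202, minus strand) and Syne3 (chr12:104998678-104998927, minus strand) were the 3 that were at least 2-fold higher. The windows of Syne3 and Dicer1 belong to start sites inside the span of the gene, not to the outermost one.
Ckb: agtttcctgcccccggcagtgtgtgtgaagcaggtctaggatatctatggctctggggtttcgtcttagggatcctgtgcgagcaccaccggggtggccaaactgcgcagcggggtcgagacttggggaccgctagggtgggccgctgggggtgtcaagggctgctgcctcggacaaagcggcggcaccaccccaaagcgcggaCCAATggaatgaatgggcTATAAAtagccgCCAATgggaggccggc
Dync1h1: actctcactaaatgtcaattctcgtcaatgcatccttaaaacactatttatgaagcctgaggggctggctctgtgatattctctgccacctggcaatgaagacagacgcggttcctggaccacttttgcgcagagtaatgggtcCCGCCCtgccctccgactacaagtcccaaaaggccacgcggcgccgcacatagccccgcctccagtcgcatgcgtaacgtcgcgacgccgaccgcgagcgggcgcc
Dicer1: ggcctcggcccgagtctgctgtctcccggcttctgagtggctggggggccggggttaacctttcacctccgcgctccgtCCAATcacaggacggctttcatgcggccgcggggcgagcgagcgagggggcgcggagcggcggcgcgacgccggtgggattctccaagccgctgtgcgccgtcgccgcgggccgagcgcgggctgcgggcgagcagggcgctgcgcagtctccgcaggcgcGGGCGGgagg
Syne3: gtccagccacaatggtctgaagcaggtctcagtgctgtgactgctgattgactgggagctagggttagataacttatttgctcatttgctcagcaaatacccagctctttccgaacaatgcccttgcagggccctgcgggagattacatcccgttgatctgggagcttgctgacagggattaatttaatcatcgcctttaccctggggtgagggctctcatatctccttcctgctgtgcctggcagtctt

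The Ckb window held a TATA box whose first letter lay 28 bases before the start site, and CCAAT matches that began 46 and 16 bases before it. The windows of Dync1h1, Dicer1 and Syne3 held no TATA box. Over windows of 300 bases, which run 50 bases past the start site, a TATA box was found in 4 of 67 windows of flanking genes (5.97%) and in 13.6% of all 32851 windows. A GC box was found in 44 of the 67 (65.7%) and in 35.7% of all windows, and a CCAAT box in 23 of the 67 (34.3%) and in 37.4% of all. The interferon-stimulated response element was found in 1 of the 67 windows, that of Tdp1, and in 3.44% of all windows, and the gamma-activated site (TTCNNNGAA) in 2, those of Nrde2 and Vrk1, and in 8.30% of all. Ifi27, Ifi27l2a and Wars were among the flanking genes without a window, so their start regions were not searched. All windows include those of genes that did not reach 50 counts, whereas every flanking gene did, so the sets are unlike. The shares among genes tested were not computed. Both strands were searched for every motif, and a match is a description of the letters, not a site of binding.

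The libraries held 11885784 estimated counts for wild type and 11740202 for knockout, and the flanking genes took 0.441% and 0.451% of them. Ratios set knockout over wild type, in estimated counts scaled between the libraries with 1 scaled count added, and the 95% interval of each covers counting error only. All 8 macrophage markers were listed in both libraries, with summed levels of 19245 FPKM in wild type and 17360 in knockout. Most of each sum came from the highest single marker, at 13192 and 12481 FPKM, whereas the lowest stood at 5.86 and 16.3. The 10 fibroblast and matrix markers summed to 141 and 36.4 FPKM, and 10 T and NK cell markers, of which Trac was not listed, to 156 and 296. The 8 epithelial markers summed to 5.24 and 1.17 FPKM, with Krt5, Krt14 and Cldn4 not listed, and 6 B cell markers to 1.40 and 2.51, with Igkc and Pax5 not listed. Of the epithelial sums, the highest single marker gave 4.65 FPKM in wild type and 0.39 in knockout. The 7 dendritic cell markers summed to 0.690 and 3.02 FPKM, with Flt3 listed in neither library and Ccr7, Cd209a and Itgae not listed in wild type. The part of these cells in the ratios below was not tested, and in such bulk RNA fewer cells of a type and less RNA per cell cannot be told apart.

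Lgmn itself had 23550 estimated counts in wild type (1048 FPKM) and 426 in knockout (19.2 FPKM), so the order of the libraries matched their labels. Its log2 ratio was -6.01. No flanking gene came near this. Their log2 ratios ran from -1.10 to 1.82 with a median of -0.01, and the median over all 9498 genes was likewise within 0.01 of 0, at -0.00061. Of the 61 genes, 29 had a ratio above 0 and 32 below. Of them, 3 were at least 2-fold higher (4.92%), against 6.05% of all genes tested, and 1 was at least 2-fold lower (1.64%), against 1.74% of all genes tested. The counting interval of the ratio lay above 1 for 18 genes and below 1 for 21 and held 1 for 22, so that 63.9% of the flanking genes had an interval without 1, and 60.4% of all genes tested.

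**Figure D1:**
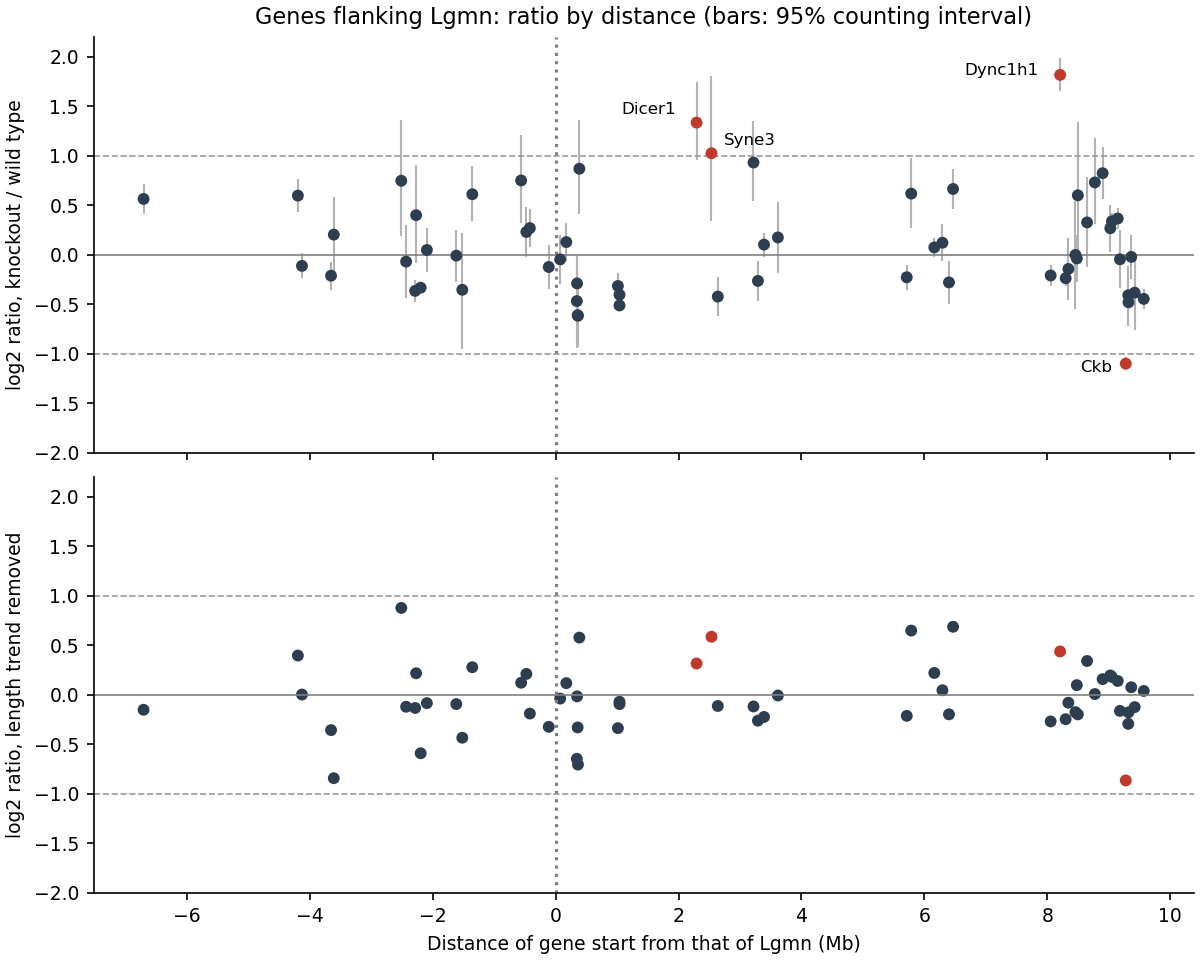
Log2 ratio of each of the 61 flanking genes (y axis) against the distance of its start from that of Lgmn in Mb (x axis, dotted line at Lgmn), as scaled with 95% counting intervals (upper panel) and with the transcript length trend removed (lower panel). Red points are the 4 genes past 2-fold in the upper panel (dashed lines), all at least 2.29 Mb from Lgmn, and in the lower panel no gene is past 2-fold.

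The nearest neighbours of Lgmn differed little between the libraries. Rin3 (chromosome 12, 102282840 to 102390854), an exchange factor for Rab5 GTPases of early endosomes, ends 3.23 kb from Lgmn on the opposite strand. It had 318 estimated counts in wild type and 340 in knockout, or 6.91 and 7.41 FPKM, a log2 ratio of -0.12 (-0.35 to 0.10). Golga5 (102469109 to 102498015), a golgin that tethers vesicles to the Golgi, starts 29.4 kb from the other end of Lgmn. It had 258 and 291 counts, or 7.74 and 8.88 FPKM, a log2 ratio of -0.05 (-0.29 to 0.20). For both genes the scaled levels of the libraries differed by less than counting error. Beyond Golga5, Itpk1 (102568583 to 102704869), a kinase of inositol polyphosphates, had 406 and 517 counts and a log2 ratio of 0.13 (-0.06 to 0.32). With the transcript length trend removed, Rin3 stood at -0.32, Golga5 at -0.04 and Itpk1 at 0.12.

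Within 1 Mb of Lgmn lay 11 flanking genes, and 0 of them passed 2-fold in either direction. Their log2 ratios ran from -0.62 to 0.87, with a median of -0.05. Of all genes tested, 6.05% were higher and 1.74% lower, so a count of 0 among 11 genes says little. On the lower side of Lgmn, Cpsf2, a subunit of the complex that cleaves and polyadenylates messenger RNA, had 371 counts in wild type and 521 in knockout (log2 ratio 0.27, 0.07 to 0.47). Trip11, a large golgin also called GMAP-210, had 67 and 132 counts (log2 ratio 0.75, 0.32 to 1.20), a level higher in the knockout library but below 2-fold. On the upper side, Btbd7, a BTB domain protein, had 56 and 120 counts, and its log2 ratio of 0.87 (0.41 to 1.36) was the largest within 1 Mb. Ddx24, an RNA helicase just beyond 1 Mb, had 1032 and 966 counts, a log2 ratio of -0.32 (-0.44 to -0.19). Ubr7, a ubiquitin ligase that acts on histone H2B, had 307 and 233 counts, and its log2 ratio of -0.62 (-0.87 to -0.37) was the lowest within 1 Mb. Tmem251, needed for the mannose 6-phosphate tag of lysosomal enzymes and now named Lyset, had 554 and 528 counts, a log2 ratio of -0.29 (-0.46 to -0.12). With the transcript length trend removed, Trip11 stood at 0.12, Cpsf2 at -0.19 and Tmem251 at -0.02. Adjusted values were larger in size than these for Btbd7 at 0.58, Ubr7 at -0.71 and Ddx24 at -0.34. Against their unadjusted ratios, Btbd7 moved towards 0, and Ubr7 and Ddx24 moved slightly away from it.

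Atxn3, a deubiquitinase that starts 0.475 Mb from Lgmn, differed most in mean transcript length between the deposited tables. That length, which weights isoforms by their estimated use, was 2456 bases in wild type and 3344 in knockout. Its counts of 226 and 309 gave a log2 ratio of 0.23 (-0.02 to 0.48), while its deposited levels, which are per length, were 7.64 and 7.75 FPKM. The tables list 2 transcripts for this gene. Of the 28 flanking genes with several transcripts, 9 had a mean length that differed by over 1% between the libraries and 2 by over 5%. The other was Ppp2r5c, a regulatory subunit of protein phosphatase 2A, at 2976 and 3238 bases.

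Farther out, on the lower side of Lgmn, Ppp4r3a, a subunit of protein phosphatase 4, had 170 and 303 counts. Its log2 ratio was 0.61 (0.34 to 0.89), or 0.28 with the length trend removed. Dglucy, a cyclase of D-glutamate, had 228 and 264 counts and a log2 ratio of -0.01, and Ttc7b, a scaffold of a lipid kinase at the plasma membrane, 308 and 371 counts and 0.05. The 6 genes between 1 and 2 Mb had a median log2 ratio of -0.34, or -0.09 with the length trend removed, with 0 past 2-fold. The 17 genes between 2 and 5 Mb had a median of 0.10, with 2 at least 2-fold higher (11.8%) and 0 lower. The 27 genes beyond 5 Mb had a median of -0.0025, with 1 higher and 1 lower (3.70% each). Of all genes tested, 6.05% were higher and 1.74% lower. Across the 61 genes, which are not independent replicates, Spearman's rho between the absolute log2 ratio and the absolute distance was -0.0087, given as a description. The 18 genes on the lower side of Lgmn had a median of 0.12 and 0 past 2-fold. The 43 on the upper side had a median of -0.04 and held all 4 of the genes past 2-fold. Of those 43 genes 6.98% were higher and 2.33% lower, against 6.05% and 1.74% of all genes tested. The lower side held longer transcripts, with a median of 3624 bases against 2850. On the rest of chromosome 12, 259 genes were tested, of which 5.02% (13 genes) passed 2-fold upwards and 1.16% (3 genes) downwards. Over the 19 other chromosomes, X included, the share at least 2-fold higher ran from 4.73% to 8.78% and the share lower from 1.03% to 2.83%, so the shares of the flanking genes lay inside both ranges.

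The ratios of the flanking genes followed transcript length, as did those of the libraries at large. Spearman's rho between the log2 ratio and the length was 0.681 across the 61 genes and 0.609 across all genes tested, given as a description. All genes tested were cut into 5 classes of equal size by length. The class of shortest transcripts, up to 1526 bases, held 10 flanking genes, of which 0 had a ratio above 0, with a median of -0.43, against -0.32 for all genes of that class. The class of longest transcripts, from 4558 bases, held 11 flanking genes, and all 11 had a ratio above 0, with a median of 0.75, against 0.58 for all genes of that class. In that class 20.9% of all genes were at least 2-fold higher, and all 3 of the higher flanking genes belonged to it. With the trend of the log2 ratio on length over all genes subtracted, 0 of the 61 genes were at least 2-fold higher, against 2.14% of all genes, and 0 were at least 2-fold lower, against 1.9%. The adjusted log2 ratios ran from -0.87 to 0.88 with a median of -0.09, against -0.01 for all genes.

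**Figure D2:**
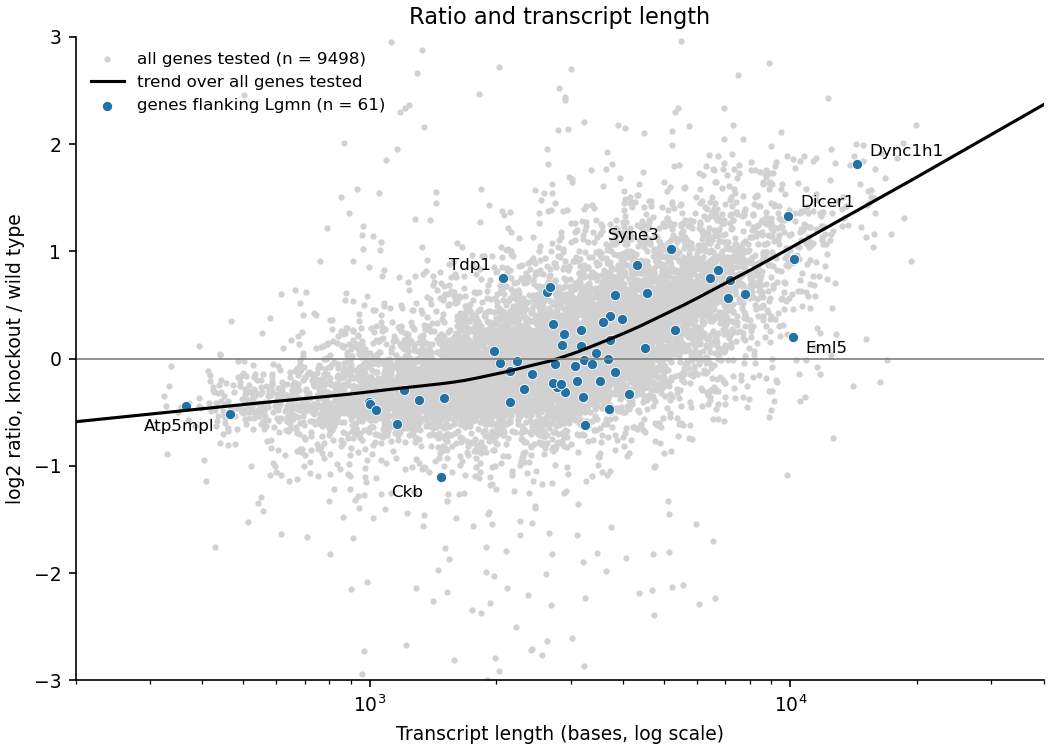
Log2 ratio of knockout over wild type (y axis) against mean transcript length in bases (x axis, log scale) for all 9498 genes tested (grey), with their lowess trend (line) and the 61 flanking genes (blue). The flanking genes lie along the trend, from Atp5mpl with the shortest transcript to Dync1h1 with the longest. Some grey points lie outside the range drawn.

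The 3 genes at least 2-fold higher encode a motor, a nuclear envelope protein and a nuclease. Dync1h1 (110601395 to 110666944, 8.21 Mb from Lgmn) encodes the heavy chain of cytoplasmic dynein, the motor that carries lysosomes and other cargo towards the centre of the cell. It had 357 estimated counts (2.03 FPKM) in wild type and 1467 (8.47 FPKM) in knockout, 3.52-fold higher (3.14 to 3.97). Its transcript of 14398 bases was the longest of the 61, and its log2 ratio of 1.82 became 0.44 with the length trend removed. Dicer1 (104687740 to 104751968, 2.29 Mb), the nuclease that cuts microRNA precursors, had 74 counts (0.62 FPKM) in wild type and 219 (1.85 FPKM) in knockout, 2.52-fold higher (1.94 to 3.35). Its transcript has 9851 bases, and its log2 ratio of 1.33 became 0.32. Syne3 (104929933 to 105010587, 2.54 Mb), which encodes nesprin-3 of the nuclear envelope, had 24 and 58 counts, 2.03-fold higher (1.27 to 3.49), and its log2 ratio of 1.02 became 0.59. Syne3 was a member only through its count in the knockout library, and its place among genes past 2-fold ended when 5 scaled counts were added.

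Ckb (111669355 to 111672338, 9.28 Mb from Lgmn) was the 1 gene at least 2-fold lower. It encodes the brain-type creatine kinase, which restores ATP from phosphocreatine. It had 5660 estimated counts (321 FPKM) in wild type and 3077 (177 FPKM) in knockout, 2.14-fold lower (2.05 to 2.24). With 1478 bases its transcript is short, and its log2 ratio of -1.10 became -0.87 with the length trend removed, the lowest adjusted value of the 61. Scaling by library totals gave -0.86, and deposited FPKM gave -0.86, so the gene did not reach 2-fold under these scalings. Both also moved the median log2 ratio of all genes tested, to 0.24 and 0.23, and the values of Ckb are read against that shift. After length adjustment the gene did not reach 2-fold either. Fibroblast and matrix markers, summed, were lower in the same library (141 and 36.4 FPKM), and their part in the value of Ckb was not tested. The flanking genes nearest to Ckb had ratios closer to 0, at -0.05 for Mark3, a microtubule affinity-regulating kinase, and -0.41 for Bag5, a co-chaperone.

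**Figure D3:**
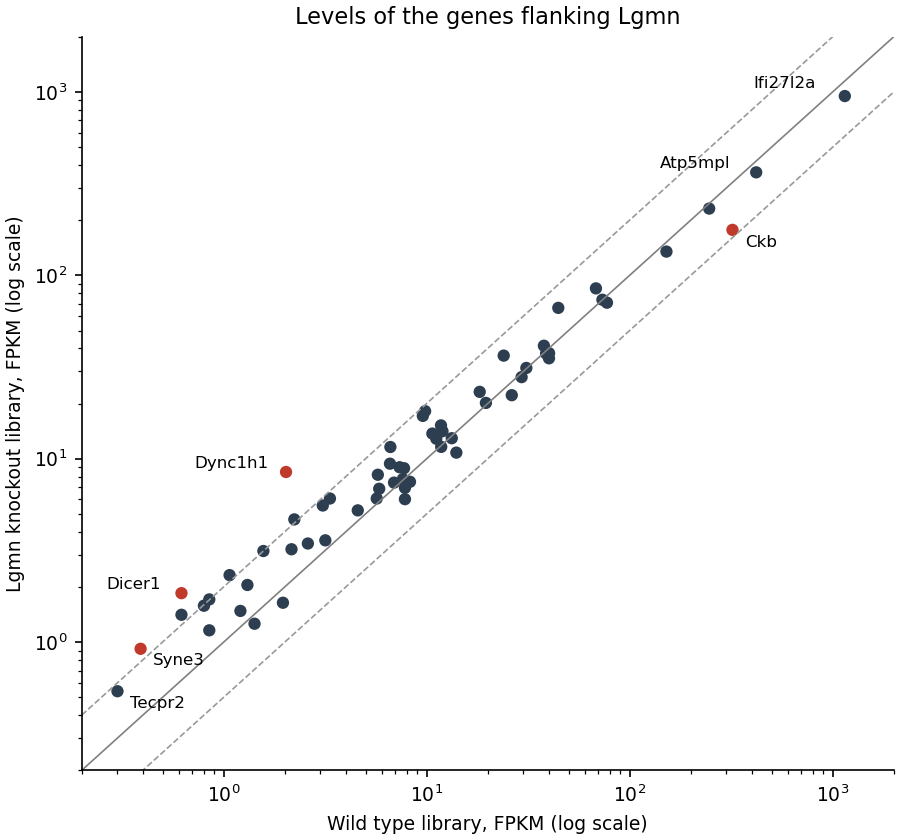
Deposited level of each of the 61 flanking genes in FPKM in the wild type library (x axis) and the knockout library (y axis), both log scales. The solid line marks equal levels and the dashed lines 2-fold, and red points are the 4 genes past 2-fold in scaled counts, which Ckb (321 and 177 FPKM) is not on this scale. With 0.1 FPKM added, the median log2 ratio of all genes tested was 0.23 on this scale, so the solid line is not their centre.

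Levels of the flanking genes covered a wide range per length. They ran from 0.3 to 1148 FPKM in wild type, with a median of 7.82, and from 0.54 to 950 FPKM in knockout, with a median of 8.99. Ifi27l2a, an interferon-inducible membrane protein, was the most abundant by its mean over both libraries, at 1148 and 950 FPKM. Atp5mpl, a small subunit of the ATP synthase complex, followed at 420 and 364 FPKM, then Ckb at 321 and 177 FPKM. Ifi27 stood at 152 and 135 FPKM. Each of these 4 was lower in the knockout library on the FPKM scale, Ckb by the most. All 4 belong to the class of shortest transcripts. With the length trend removed, the log2 ratios were -0.07 for Ifi27l2a, 0.04 for Atp5mpl, -0.87 for Ckb and -0.09 for Ifi27.

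Genes of transcription and chromatin numbered 7, with 0 past 2-fold and a median log2 ratio of -0.23. Ubr7 and Gon7 were lowest. Gon7 is a subunit of the KEOPS complex that modifies transfer RNA, so its place in this list is doubtful. It had 193 and 147 counts and a log2 ratio of -0.61 (-0.93 to -0.30). Ccnk, which encodes cyclin K of transcription elongation, was the highest of the list with 106 and 190 counts and a log2 ratio of 0.62 (0.27 to 0.98), or 0.65 with the length trend removed. Yy1, a zinc finger transcription factor, had 372 and 357 counts and a log2 ratio of -0.28. Of 4 genes of DNA repair and the cell cycle, 0 passed 2-fold. Tdp1, which releases topoisomerase I from DNA ends, had 39 and 77 counts, a log2 ratio of 0.75 (0.19 to 1.36), and 0.88 with the length trend removed, the highest adjusted value of the 61. Like Syne3 it reached 50 counts only in knockout. Vrk1, a chromatin kinase, had 117 and 154 counts and a log2 ratio of 0.17 (-0.18 to 0.54).

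Genes of RNA processing and translation numbered 8, with 1 past 2-fold upwards (Dicer1) and 0 downwards. The share upwards, 12.5%, rests on 1 gene, and of all genes tested 6.05% passed upwards and 1.74% downwards. After length adjustment 0 of the 8 passed 2-fold. The list had a median log2 ratio of 0.32, or -0.03 with the length trend removed. Wars, the tryptophanyl-tRNA synthetase, had 316 and 584 counts, a ratio of 1.58 (1.38 to 1.82). On the log2 scale this was 0.66, and 0.69 after length adjustment. Nrde2, a nuclear RNA surveillance factor, had 59 and 91 counts and a log2 ratio of 0.40 (-0.08 to 0.90). Eif5, a translation initiation factor, had 1152 and 1730 counts and a log2 ratio of 0.37 (0.26 to 0.47), or 0.14 after adjustment.

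Genes of ubiquitin, the proteasome and chaperones numbered 6, with 0 past 2-fold and a median of -0.30. Of the 6, 4 had a ratio below 0. The others were Btbd7, the highest of the list at 0.87, and Atxn3 at 0.23, and the lowest was Ubr7 at -0.62. Psmc1, an ATPase of the proteasome cap, had 1386 and 1254 counts and a log2 ratio of -0.37, and Hsp90aa1, a cytosolic chaperone, had 2527 and 2498 counts and a log2 ratio of -0.24. Bag5, a co-chaperone of Hsp70, had 202 and 177 counts and a log2 ratio of -0.41 (-0.71 to -0.11). Genes of membrane traffic numbered 9, with 0 past 2-fold and a median of 0.05. The highest was Atg2b, a lipid transfer protein of autophagosomes, with 77 and 172 counts and a log2 ratio of 0.93 (0.54 to 1.35). Its transcript has 10173 bases, and length adjustment took it to -0.12, below 0.

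Genes of the cytoskeleton and motors numbered 7, of which 2 passed 2-fold upwards (Dync1h1 and Syne3) and 0 downwards, and their median was 0.20. The list held long transcripts, with a median of 5187 bases. Among all genes tested 6.05% passed 2-fold upwards, and 20.9% in the class of longest transcripts, to which both genes belong. After length adjustment 0 of the 7 did. Cdc42bpb, a kinase that drives actomyosin, had 182 and 376 counts and a log2 ratio of 0.82 (0.57 to 1.09), or 0.16 after adjustment. Eml5, a microtubule-associated protein, had 105 and 141 counts and a log2 ratio of 0.20 (-0.17 to 0.58), which was low for a transcript of 10136 bases and became -0.84 after adjustment. Klc1, a light chain of kinesin, had 325 and 373 counts and a log2 ratio of -0.02. Of 10 genes of kinases, phosphatases and signalling, 0 passed 2-fold, with a median of 0.04. The 3 farthest from 0 were Cdc42bpb, Ppp4r3a and Traf3. Traf3, an adaptor of tumour necrosis factor and toll-like receptors, had 70 and 136 counts and a log2 ratio of 0.73, which was 0.01 after adjustment.

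**Figure D4:**
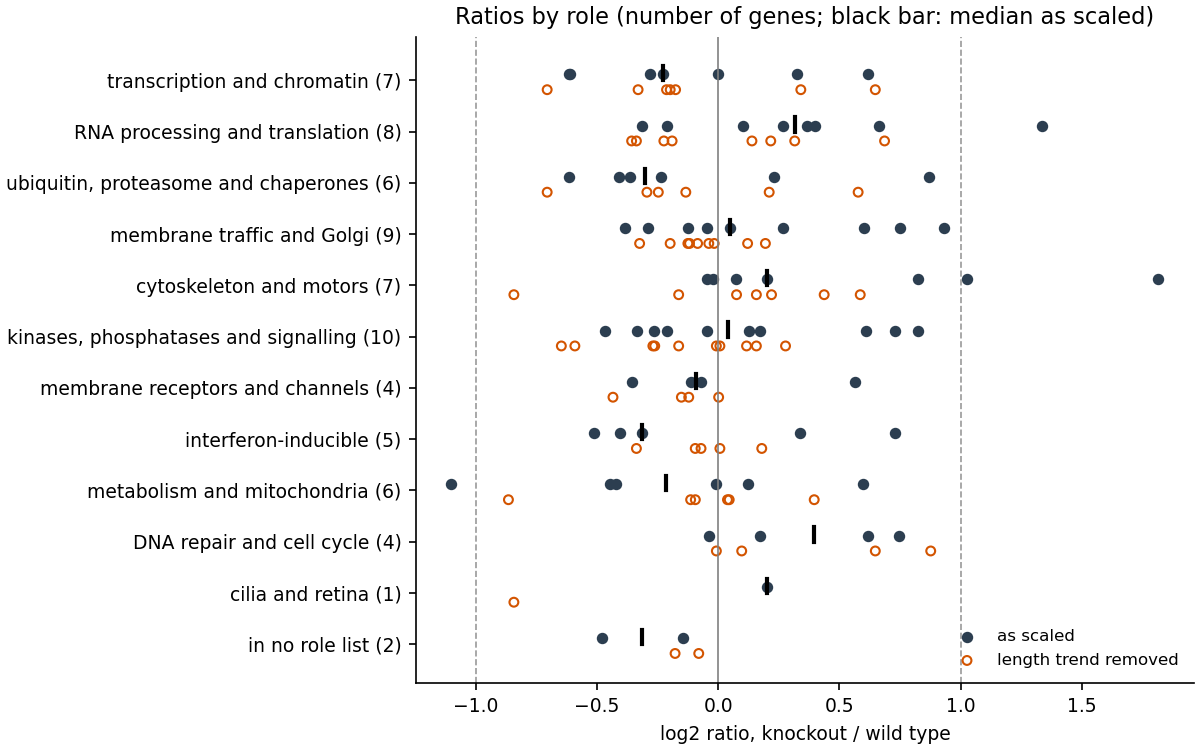
Log2 ratios of the flanking genes (x axis) by role list (y axis, number of genes in brackets), as scaled (filled points, black bar at the median) and with the transcript length trend removed (open points). Dashed lines mark 2-fold, and no open point is past them. A gene in 2 lists is drawn in both.

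The list of interferon-inducible genes held 5 flanking genes (Ifi27l2a, Ifi27, Ddx24, Tnfaip2 and Traf3), with 0 past 2-fold. The median log2 ratio was -0.32, the value of Ddx24, or -0.07 after length adjustment. Of the 5, 3 had a ratio below 0, and Tnfaip2 and Traf3 above it. Wars, which is known to be induced by interferon gamma, is not in the list. Ifi27l2a had 6004 and 4906 counts and a log2 ratio of -0.51 (-0.57 to -0.46), and Ifi27, which lies within it on the other strand, 1780 and 1567 counts and a log2 ratio of -0.40 (-0.50 to -0.31). Length adjustment took Ifi27l2a to -0.07 and Ifi27 to -0.09. The sources used here do not say whether reads were counted by strand, and the counts of both genes summed gave -0.49 without adjustment. Tnfaip2, inducible by tumour necrosis factor, had 1935 and 2849 counts and a log2 ratio of 0.34 (0.25 to 0.42). The Serpina3 genes of the stretch were left out of the flanking genes, and 5 of them were listed. Of these, 2 reached 50 counts, both higher in knockout. Serpina3f, 1.82 Mb from Lgmn, had 22.8 and 276 estimated counts, and Serpina3g, at 1.84 Mb, 32.4 and 251. The other three were below the minimum and had fewer counts in knockout, with 12.2 and 3.04 for Serpina3n, 3.64 and 1.08 for Serpina3i, and 2 and 0 for Serpina3c.

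The 4 genes of membrane receptors and channels had a median of -0.09, with 0 past 2-fold. Gpr65, a proton-sensing receptor, had 979 and 1055 counts and a log2 ratio of -0.11 (-0.24 to 0.01). Flrt2, a leucine-rich transmembrane protein and the farthest member on the lower side, had 573 and 987 counts, a log2 ratio of 0.56 (0.41 to 0.71), or -0.15 after adjustment. Of 6 genes of metabolism and mitochondria, 1 passed 2-fold downwards (Ckb) and 0 upwards, and the median was -0.22. The share downwards, 16.7%, rests on 1 gene, and of all genes tested 1.74% passed downwards and 6.05% upwards. After length adjustment 0 of the 6 passed 2-fold. Galc, the lysosomal galactosylceramidase, had 444 and 783 counts, a ratio of 1.51 (1.34 to 1.70), and its log2 ratio moved from 0.60 to 0.40 with length adjustment. Only Wdr20, a cofactor of deubiquitinases, and Coa8, an assembly factor of respiratory complex IV, were in no list, at -0.14 and -0.48.

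Among the flanking genes 6 pairs are arranged head to head, with start sites within 1 kb of each other, a layout chosen for description after the values were seen. Gon7 and Ubr7 start 165 bases apart. Their log2 ratios were -0.61 and -0.62, the closest of the 6 pairs before length adjustment. Their transcripts have 1162 and 3247 bases, and the adjusted values of -0.33 and -0.71 lay 0.37 apart. The value of Gon7 also rests on how reads were divided with Gm20604, a gene that spans both Moap1 and Gon7, and the 3 genes summed gave -0.35. Atg2b and Gskip start 55 bases apart, and their log2 ratios were 0.93 and -0.26, the farthest apart of the 6 pairs before adjustment, a difference of 1.19. Gskip, a regulator of GSK3, has a transcript of 2787 bases, against 10173 for Atg2b, and the adjusted values of the pair were -0.26 and -0.12, a difference of 0.14. After adjustment the closest pair was Bag5 and Coa8, 0.12 apart, and the farthest Setd3 and Ccnk, 0.86 apart. The stretch between the start sites of each pair is shown on the plus strand because the closest and the farthest unadjusted ratios both came from genes that share so short a stretch (chr12:102757811-102757974 and chr12:105685298-105685351, RefSeq GRCm38.p6), with matches to the GC box and to the CCAAT box in capitals.
Gon7 and Ubr7: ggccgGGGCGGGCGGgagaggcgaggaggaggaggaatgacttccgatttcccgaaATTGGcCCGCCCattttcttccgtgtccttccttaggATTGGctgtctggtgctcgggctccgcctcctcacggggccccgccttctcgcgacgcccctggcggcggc
Atg2b and Gskip: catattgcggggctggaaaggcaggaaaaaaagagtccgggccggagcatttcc

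The stretch between Gon7 and Ubr7 held 3 GC box and 2 CCAAT box matches, some of them overlapping, and that between Atg2b and Gskip held 0 of either. The stretches of Bag5 and Coa8 and of Moap1 and Tmem251 also held 0 of either. That of Cinp and Tecpr2 held 1 GC box match and 0 CCAAT box matches. Bag5 and Coa8, 12 bases apart, had log2 ratios of -0.41 and -0.48, and Moap1 and Tmem251, 58 bases apart, -0.47 and -0.29, with overlapping counting intervals in both pairs. Moap1 encodes a modulator of apoptosis that binds Bax. Cinp and Tecpr2, 98 bases apart, had -0.04 and 0.60, with transcripts of 2043 and 7793 bases. Setd3, a methyltransferase of actin, and Ccnk overlap at their starts, and had -0.23 and 0.62, a difference of 0.84, with transcripts of nearly the same length, 2725 and 2632 bases.

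**Figure D5:**
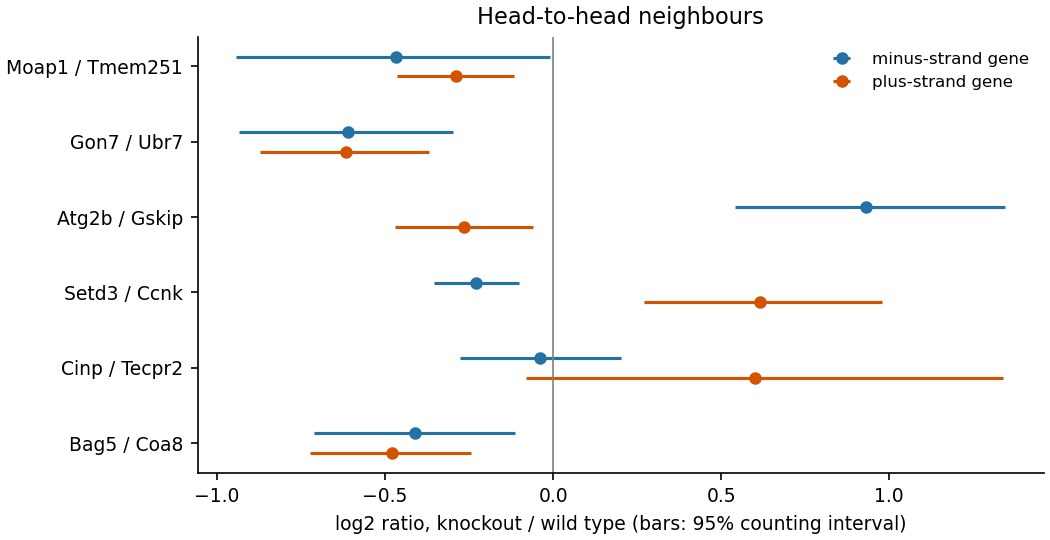
Log2 ratios with 95% counting intervals (x axis) of the 6 head-to-head pairs of flanking genes (y axis), the minus-strand gene in blue and the plus-strand gene in orange. Intervals overlap for Moap1 and Tmem251, Gon7 and Ubr7, Cinp and Tecpr2, and Bag5 and Coa8, and lie apart for Atg2b and Gskip and for Setd3 and Ccnk.

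Some counts rest on a division of shared reads. Estimated counts were not whole, within 0.005, in at least 1 library for 11 of the 61 genes. There are also 4 pairs of flanking genes that overlap. Of the genes in these pairs only Ifi27l2a had a count that was not whole, 6003.98 in wild type. Gm20604 joins Moap1 to Gon7 in RefSeq, starting where Gon7 starts and ending where Moap1 ends. It was not listed in the wild type file and had 35.1 counts in the knockout file, below the minimum. Summed over Moap1, Gon7 and Gm20604, there were 280 counts in wild type and 255 in knockout, a log2 ratio of -0.35 (-0.61 to -0.11), against -0.47 and -0.61 for Moap1 and Gon7 alone.

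The minimum of 50 counts set which genes entered. Of the 61 genes, 57 reached it in both libraries, 1 only in wild type and 3 (Syne3, Tdp1 and Tecpr2) only in knockout. Just inside it lay Tecpr2, an autophagy protein, with 28.2 and 50.1 counts, and Syne3 with 24 and 58. Just outside lay Trmt61a, a transfer RNA methyltransferase, with 49.3 and 44.5 counts, and Ppp1r13b and Ptpn21, each with 44 in knockout and with 39 and 15 in wild type. A further 58 genes of the stretch were listed below the minimum, 24 of them in 1 file only, and 42 protein-coding genes of the stretch were listed in neither file. All genes of the imprinted Dlk1-Dio3 domain that were listed lay below it, Dlk1 with 7 and 3 counts, Rian with 11 and 5 and Rtl1 with 0 and 13.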

How the data were processed

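RNA of 1 wild type and 1 Lgmn knockout sample was sequenced (BGISEQ-500, per the labels), and samples were grouped by genotype label. Per the file headers, the authors' tables hold estimated counts, mean transcript lengths and FPKM for each Entrez gene, FPKM being counts per length and per depth. The submitters' processing notes name HISAT2, Bowtie2, RSEM and mm10. How strand was handled was not stated there. A gene missing from a file was treated as having no counts there.

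Coordinates and symbols came from RefSeq (GRCm38.p6, the assembly of mm10), which matched 15561 of 15605 identifiers. Of the 44 others, 16 could be placed through transcript accessions, 0 of them in the window. Estimated counts were rounded, scaled with TMM factors (edgeR 4.0.16, R 4.3.3; 0.921 for wild type, 1.09 for knockout), and log2 ratios taken after adding 1. Each ratio has a 95% interval from the exact (Clopper-Pearson) interval of the share of its counts in knockout. The labels name no molecular identifiers, and reads without them are no independent molecules, so intervals cover counting error only, not variation between mice. The length trend was a lowess fit of the log2 ratio on log2 length with a span of 0.3 (statsmodels 0.14.6, Python 3.11.15). The calculation was tested on simulated data.

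The members, the role lists and the rule for named genes were chosen with earlier results of these data known. The rule takes the 8 members nearest to Lgmn on each side, those past 2-fold, the 5 most abundant, in each list the 3 farthest from a ratio of 1, and the 3 just above and just below the minimum. Some genes that the rule names are not reported here. Eif5, Yy1, Psmc1, Hsp90aa1, Klc1, Tnfaip2, Mark3, Wdr20, Coa8, Setd3, Gskip, Cinp, Ppp2r5c, Gm20604, Dlk1, Rian, Rtl1, the Serpina3 genes, the TATA, CCAAT and GC boxes and the head-to-head pairs were chosen after their values were seen. The interferon-stimulated response element was searched as a pair of GAAA repeats separated by a pair of unspecified bases. Alternatives covered scaling (DESeq2 1.42.0 size factors, library totals, median centring), FPKM, minimums, pseudocounts, thinning, length, window and threshold. With 1 library per genotype nothing was tested across samples.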

Additional observations from a re-analysis of the deposited data

How the results depend on the processing

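The reported values were 3 flanking genes at least 2-fold higher, 1 lower, a median log2 ratio of -0.01 and one of -0.12 within 2 Mb of Lgmn. Library totals and deposited FPKM with 0.1 added each gave 6 higher (Atg2b, Btbd7 and Cdc42bpb besides the 3) and 0 lower, where 10.9% and 9.85% of all genes were higher and 1.13% and 1.07% lower. They moved the median of all genes tested to 0.24 and 0.23, so ratios under them are read against that shift. The median of the flanking genes was then 0.23 under both, and that within 2 Mb 0.11 with library totals and 0.02 with FPKM. Against all genes, the median within 2 Mb lay at -0.12 as reported and with library totals, and at -0.21 with FPKM. DESeq2 size factors, median centring and other pseudocounts also gave -0.12, and thinning -0.13. The difference shrank to -0.08 with the length trend removed. It was -0.05 with a minimum of 10 counts, -0.03 with no minimum and -0.01 with a stricter one. Keeping the Serpina3 genes, or leaving out genes whose counts were not whole, gave -0.05 each. The size of this difference thus depended on the setting. The sign of 14 of the 61 ratios changed with library totals and of 13 with FPKM. With the length trend removed, 0 genes were higher and 0 lower, and 12 of the 61 changed sign. A minimum of 10 counts gave 10 higher and 3 lower of 85 genes, against 7.76% and 3.67% of all genes. No minimum gave 12 and 16 of 119, against 9.34% and 9.81%. Within 2 Mb 0 of 17 genes were higher and 0 lower. Within 5 Mb 2 of 34 were higher (Dicer1 and Syne3) and 0 lower, against 6.05% and 1.74% of all genes. Keeping the Serpina3 genes gave 5 higher and 1 lower of 63, against the same shares. At 1.5-fold 14 were higher and 3 lower, against 16.4% and 6.39% of all genes, and at 4-fold 0 and 0, against 0.421% and 0.474%.

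DESeq2 size factors, median centring, a pseudocount of 0.5 and thinning gave the same 3 higher genes and Ckb as the lower one. A pseudocount of 5, a stricter minimum and, chosen after seeing the data, a mean of 50 counts over both libraries gave 2 higher, without Syne3. These were of 61, 42 and 59 genes in that order, where 5.53%, 4.53% and 5.49% of all genes were higher. Leaving out flanking genes whose counts were not whole, also chosen afterwards, gave 2 higher of 50, without Dicer1, against 6.05% of all genes. None of the 4 genes past 2-fold changed direction under any setting run. Depth limits genes near the minimum: the interval of Syne3, with 24 and 58 counts, spans 1.27-fold to 3.49-fold. With 1 library per genotype, the spread between mice is unknown.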
